A study of Mus musculus with 5 samples.

Results

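Activity-regulated genes are the transcripts that neurons switch on when they fire or when a growth factor reaches them, and 34 of them were followed in the dorsal lateral geniculate nucleus (dLGN) of newborn mice lacking Sema6A. The members were chosen by name, and each was read at the probe set that carried its symbol alone. Of the 34 members, 33 could be read this way, out of 18193 genes on the array. Nptxr, a pentraxin receptor, was covered by probe sets shared with Npcd and was left out. Each gene was represented by its brightest probe set over the 5 arrays, and the members had 55 probe sets in all.

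The dLGN is the thalamic relay between retina and visual cortex. Tissue was taken at postnatal day 0 from Sema6A-/- mice (2 arrays), which carry no intact copy of the transmembrane guidance protein Sema6A, and from heterozygous Sema6A mice as controls (3 arrays), which themselves have 1 disrupted copy. All mice were on a C57BL/6 background, and each array read a pool of nuclei from pups of 1 genotype and of different litters. Vibratome sections of 200 µm were collected in ice-cold artificial cerebrospinal fluid before the nucleus was cut out, for both genotypes alike, and the time this took is not given in the sources used here.

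Neuronal firing opens calcium channels and NMDA receptors, and the calcium signal runs through calmodulin-dependent and MAP kinases to CREB, SRF and MEF2, which sit ready on their target promoters. The first genes to respond encode transcription factors such as Fos, Egr1 and Npas4, along with phosphatases and G protein regulators that damp the same signal. These factors then act on later genes for secreted and synaptic proteins, among them BDNF, neuronal pentraxins and activin. In the newborn visual thalamus, spontaneous waves from the retina drive activity before the eyes open. Many of these genes are also induced by serum, stress and tissue handling, and in glia, vessels and macrophages.

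The checks of the arrays bear on every result. Sema6a, at its brightest probe set, read 7.81 and 7.85 on the log2 scale in the knockout pools, against 10.47, 10.65 and 10.39 in the control pools, and it fell by 2.68 (limma adjusted p = 0.0236). Knockout replicate 1 stood apart. The median of 19 GABAergic and prethalamic markers lay 2.59 above the control mean there and 0.11 above it in knockout replicate 2. For Gapdh, the gap between its 3′ and 5′ quality probe sets was 2.34 in that array, 0.96 in the other knockout array and 0.77 to 1.33 over the control arrays. Knockout replicate 2 read 4.10 for Xist, against 10.79 to 11.54 in the other arrays, and the labels give no sex for the pools. Among the controls, replicate 3 had the highest log2 summed level of 11 markers of meningeal cells and fibroblasts. It was 12.92 there, 12.40 and 12.19 in the other controls, and 12.38 and 12.43 in the knockout pools. The controls spanned more than 1 for 5 of these markers (45.5%), beside 1.48% of all genes. The part of these cells in other values of that array was not tested. Over all probe sets, the 2 knockout arrays differed from each other with an SD of 0.463, and control arrays with an SD of 0.303 to 0.337. All 14 measured markers of thalamic relay neurons reached the median level. At an unadjusted p under 0.05 in limma, 2 were higher and 2 lower in the knockout (28.6%), beside 11.8% of all genes. The genotypes did not overlap for 9 of the 14 (64.3%), beside 29.7% of all genes. The higher markers by that p were Foxp2 (0.48) and Calb2 (1.13), and the lower ones Rora (-0.36) and Htr1b (-0.54). Slc17a6, the vesicular glutamate transporter, differed by -0.11. Gbx2 varied widely, at 9.02 and 11.22 in the knockout pools and 6.95 to 8.86 over the control pools (1.97 ± 0.84, SE). Slc6a4, the serotonin transporter, read 7.98 and 10.60 in the knockout pools and 10.60 to 10.85 over the control pools. In such bulk tissue, fewer cells of a type and less RNA per cell cannot be told apart.

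The 33 activity-regulated genes did not move together between the genotypes. None passed an adjusted p of 0.05 in limma, a threshold that 0.0733% of the 45037 probe sets passed and 0.104% of genes at their brightest probe set, and the smallest adjusted p was 0.140, for Dusp4. At an unadjusted p under 0.05 there were 12 members (36.4%), 7 higher in the knockout and 5 lower, where 11.8% of all genes met that limit. In each direction the background was 6.9% of genes higher and 4.9% lower. The mean reached the median of all probe sets (6.41) in at least 1 genotype for 26 members and for 11968 of all genes. An unadjusted p under 0.05 was met by 10 of these members (38.5%), where 13.8% of such genes met it. Atf3 and Nptx2, among the 10, reached that level only in the knockout, so this share partly reflects the difference itself. With the level taken as the mean over all 5 arrays, 9 of 25 members met the limit, where 13.5% of genes did. The higher members were Jun, Atf3, Arc, Btg2, Rgs2, Nptx2 and Inhba. The lower members were Egr2, Nr4a1, Dusp4, Per1 and Vgf.

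The knockout and control ranges did not overlap for 14 members, 8 higher in the knockout and 6 lower. That is 42.4% of members, where 29.7% of all genes were separated in this way, 15.8% higher and 13.9% lower. The median log2 fold change over the members was -0.06, beside 0.01 over all genes, and 15 members had a positive and 18 a negative fold change. With 1 control array left out at a time, 8 to 10 members had an unadjusted p under 0.05 in limma, where 8.62% to 8.89% of all genes did. A fit without a knockout array rests on 1 array of that genotype, so no p and no count of members under that limit is given for it. Egr2, Arc, Dusp4, Nptx2, Inhba, Jun and Per1 stayed under that limit whichever control array was left out. Nr4a1 lost it without control replicate 3 (unadjusted p = 0.0569 in limma), and Vgf without any 1 of the control arrays (at most 0.0625). Atf3 and Btg2 lost it without any 1 of the control arrays (at most 0.122 and 0.105), and Rgs2 without control replicate 1 or control replicate 2 (at most 0.111). The members other than the 12 included 15 with a fold change under 0.2 in size.

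**Figure D1:**
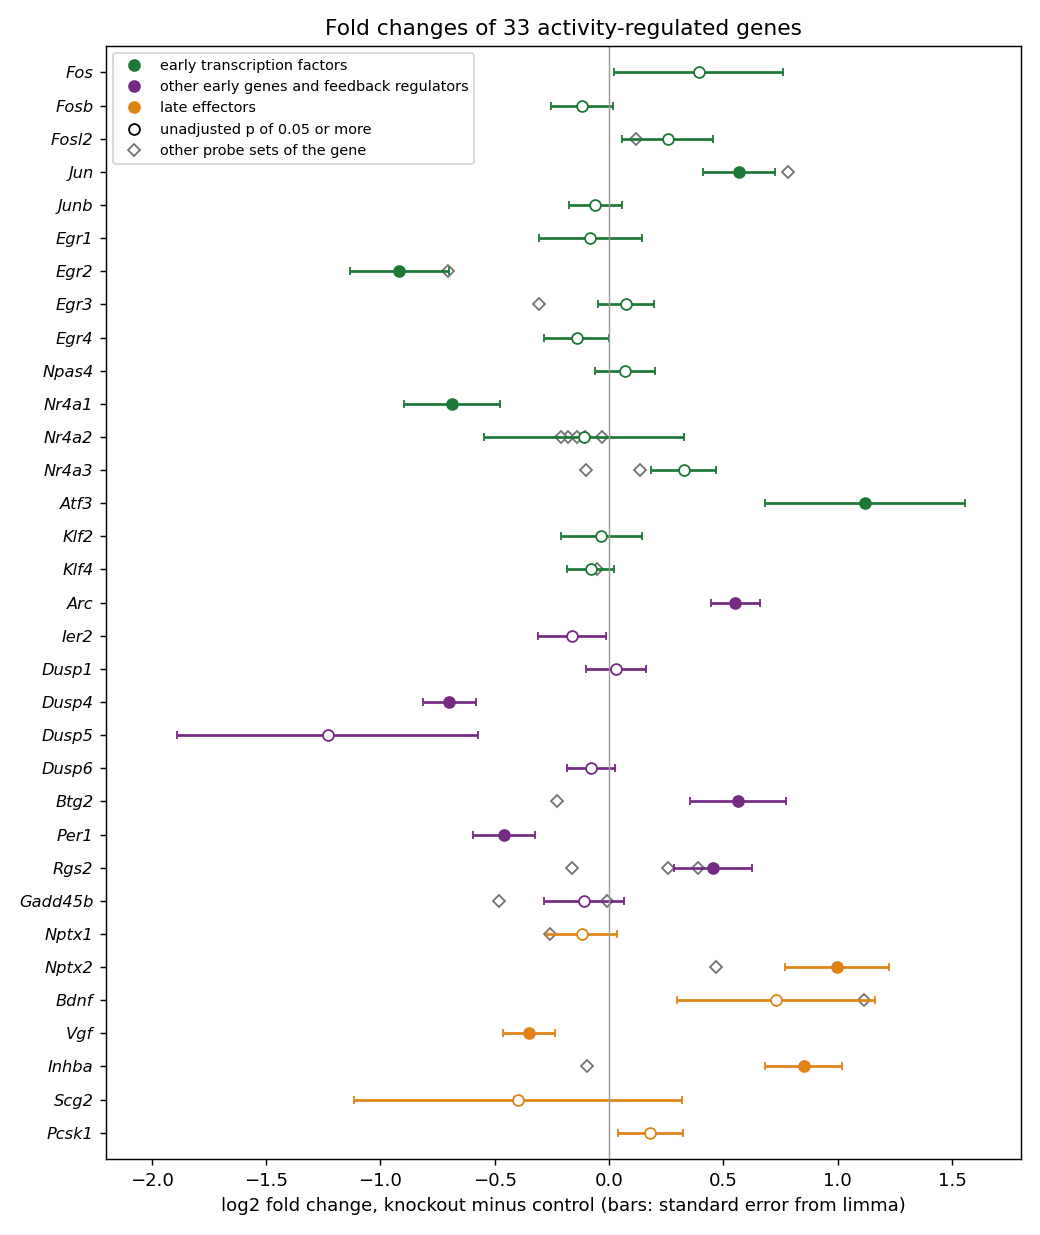
Log2 fold change (x axis, knockout minus control) of each of the 33 members (y axis), grouped by colour into early transcription factors, other early genes and late effectors. Circles are the brightest probe set with the standard error from limma, filled where the unadjusted p was under 0.05, and open diamonds are the gene's other probe sets. The 12 filled circles lie on both sides of 0, 7 to the right and 5 to the left.

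Motifs known to answer calcium and MAP kinase signals lie in the promoters of many of these genes, and 4 promoters are printed to show them: Egr2 and Nr4a1, which read lower in the knockout, Btg2, which read higher, and Fos, the archetype of the class. In the RefSeq table of GRCm38.p6, 25 of the 34 members were matched to 36 entries, and the 250 bases before each start were searched on both strands. The motifs were TGACGTCA, the full CREB site (CRE), its core TGACG, which the full site contains, TGANTCA for AP-1, GCGNGGGCG for Egr proteins, and the CArG box, the site of SRF. Capitals mark matches. Egr2 is read from chr10:67537619-67537868 on the plus strand, Nr4a1 from chr15:101266596-101266845 on the plus strand, Btg2 from chr1:134079156-134079405 on the minus strand and Fos from chr12:85473640-85473889 on the plus strand, each 5′ to 3′.
Egr2: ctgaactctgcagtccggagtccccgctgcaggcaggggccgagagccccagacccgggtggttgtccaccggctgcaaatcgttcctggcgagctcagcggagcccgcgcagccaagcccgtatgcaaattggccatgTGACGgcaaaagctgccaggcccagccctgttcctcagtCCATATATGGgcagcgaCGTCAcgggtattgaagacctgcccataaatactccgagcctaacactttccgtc
Nr4a1: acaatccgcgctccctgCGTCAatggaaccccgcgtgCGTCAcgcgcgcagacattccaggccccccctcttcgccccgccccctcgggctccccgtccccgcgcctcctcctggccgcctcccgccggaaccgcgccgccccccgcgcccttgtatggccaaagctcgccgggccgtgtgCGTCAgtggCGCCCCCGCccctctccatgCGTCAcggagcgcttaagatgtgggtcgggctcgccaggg
Btg2: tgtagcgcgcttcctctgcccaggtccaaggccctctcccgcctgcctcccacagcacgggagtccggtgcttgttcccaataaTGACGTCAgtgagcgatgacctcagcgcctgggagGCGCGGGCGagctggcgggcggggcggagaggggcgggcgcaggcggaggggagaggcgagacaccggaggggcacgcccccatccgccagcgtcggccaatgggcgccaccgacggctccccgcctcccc
Fos: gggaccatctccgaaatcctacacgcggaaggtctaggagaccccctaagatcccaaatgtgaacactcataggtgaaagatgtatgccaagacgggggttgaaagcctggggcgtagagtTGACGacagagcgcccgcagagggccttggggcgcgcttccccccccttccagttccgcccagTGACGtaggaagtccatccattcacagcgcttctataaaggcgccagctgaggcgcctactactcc

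The Egr2 window held a CArG box 72 bases upstream of the start, flanked by a CRE core on each side. Of the 5 Egr2 windows, 4 held a CArG box, and 3 of these overlap. Nr4a1 had 4 CRE cores and an Egr site, Btg2 a full CRE and an Egr site, and Fos 2 CRE cores. Sequence beyond these 250 bases was not searched, so a motif further upstream, in Fos or another member, would be missed. The Jun and Inhba windows held none of these motifs. The CRE core was found in 23 of the 36 windows of members, against 17.8% of all 32851 windows of this length in the table. The full CRE occurred in 4, those of Scg2, Btg2, Pcsk1 and Dusp1, against 1.55% of all windows. The CArG box occurred in 5, those of Egr2 and Dusp5, against 1.47%, the Egr site in 9, against 4.70%, and the AP-1 site in 1, a window of Bdnf, against 6.75%. Genes that read higher and genes that read lower both held CRE cores: Rgs2 and Atf3 among the higher, Per1 and Nr4a1 among the lower. A match describes the letters and not a bound site.

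The Fos and Jun families form the AP-1 factor. Fos read 9.06 and 8.55 in the knockout pools, against 8.80, 8.72 and 7.73 in the control pools. The groups overlapped, control replicate 3 was the lowest array, and the log2 fold change of 0.39 ± 0.37 (SE) had an adjusted p of 0.733 in limma. Without control replicate 3 the difference was 0.05. Jun, the partner of Fos, read 12.32 and 11.99 in the knockout, against 11.64, 11.69 and 11.42 in the control. Both knockout arrays were above all controls, by 0.57 ± 0.16 on average (SE, unadjusted p = 0.0128, adjusted p = 0.311 in limma), and its other probe set gave 0.78. Fosl2 overlapped between genotypes (0.26), and so did Junb (-0.06) and Fosb (-0.12), both of which stayed below the median level in each genotype.

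The Egr genes encode zinc finger factors that follow MAP kinase signalling, and Egr2 was the only one of the 4 whose brightest probe set separated the genotypes. Egr2 read 7.36 and 6.75 in the knockout, against 8.15, 7.95 and 7.81 in the control. Both knockout arrays were below every control, with a difference of -0.92 ± 0.22 (SE, unadjusted p = 0.00667, adjusted p = 0.254 in limma), which was -0.61 without knockout replicate 2. Its other probe set read 7.46 and 6.43 in the knockout against 7.90, 7.69 and 7.35 in the control, so that knockout replicate 1 fell among the controls there and the fold change was -0.70. Egr1, the most widely used reporter of neuronal activity in the family, read 11.34 and 11.45 in the knockout, against 11.65, 11.73 and 11.06 in the control. Both knockout values sat inside the control range (-0.08 ± 0.23, SE). Egr3 (0.07) and Egr4 (-0.14) overlapped as well, and the second probe set of Egr3 gave -0.31 with controls spread from 5.21 to 6.41.

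The Nr4a genes encode orphan nuclear receptors that respond early to calcium and cAMP. Nr4a1 read 7.02 and 7.01 in the knockout, against 7.36, 8.03 and 7.74 in the control. Both knockout arrays were below all controls and almost equal, and the difference was -0.69 ± 0.21 (SE, unadjusted p = 0.0188, adjusted p = 0.345 in limma). Nr4a2, also a factor of dopaminergic and cortical neurons, read 8.18 and 6.75 in the knockout, against 7.89, 7.28 and 7.57 in the control. The 2 knockout arrays lay on opposite sides of the controls. Nr4a3 read 8.87 and 8.99 in the knockout, against 8.60, 8.78 and 8.43 in the control, a separation in the direction opposite to Nr4a1 (0.33 ± 0.14, SE, unadjusted p = 0.0633 in limma). Its 2 dimmer probe sets gave -0.10 and 0.14.

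The remaining early factors split between those tied to stress and those tied to neurons or vessels. Atf3, a stress-induced partner of AP-1 proteins, read 7.33 and 5.84 in the knockout, against 5.34, 5.72 and 5.33 in the control. Knockout replicate 1 carried most of the difference of 1.12 ± 0.44 (SE, unadjusted p = 0.0457, adjusted p = 0.439 in limma). Without that array the difference was 0.38. Npas4, the neuron-specific factor induced by calcium entry, read 3.75 and 3.86 in the knockout, against 3.58, 3.77 and 3.86 in the control, all far below the median level, so this probe set gave no separation to describe. Klf2, a flow-responsive factor of endothelium, and Klf4 differed by -0.03 and -0.08.

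**Figure D2:**
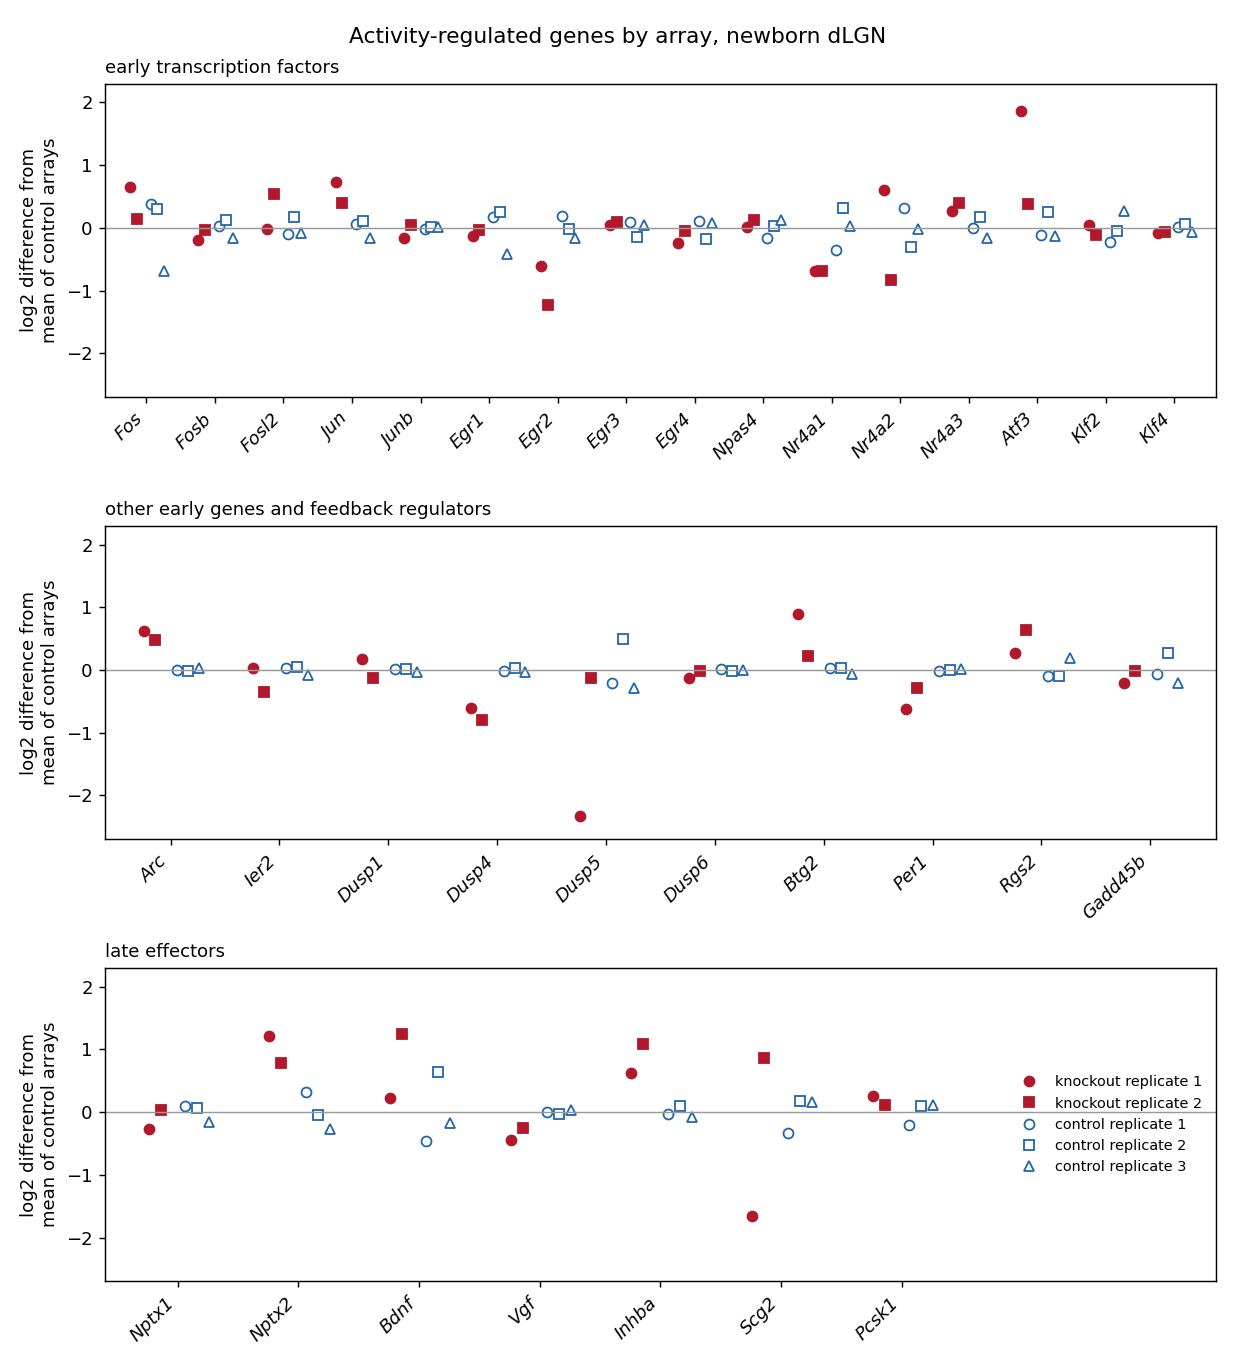
Difference of each array from the mean of the control arrays on the log2 scale (y axis) for the 33 members (x axis), in 3 panels by role. Filled red symbols are the 2 knockout arrays and open blue symbols the 3 control arrays. Knockout replicate 1 is far from replicate 2 for Atf3, Nr4a2, Dusp5 and Scg2, and control replicate 3 is the lowest array for Fos and Egr1.

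Of the early genes that are not transcription factors, 5 of 10 had an unadjusted p under 0.05, 3 higher and 2 lower in the knockout, beside 11.8% of all genes. Arc, whose protein forms capsid-like shells and promotes removal of AMPA receptors from synapses, read 5.57 and 5.43 in the knockout, against 4.94, 4.92 and 4.97 in the control. The groups were well separated beside a control SD of 0.02, with a difference of 0.55 ± 0.11 (SE, unadjusted p = 0.00268, adjusted p = 0.190 in limma). Both genotypes were below the median level of the array at this probe set. Ier2, a small nuclear early protein, overlapped between genotypes (-0.16).

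The Dusp genes encode phosphatases that switch MAP kinases off, and the 4 measured here gave unlike values. Dusp4, a nuclear phosphatase, read 10.14 and 9.94 in the knockout, against 10.72, 10.77 and 10.71 in the control. Both knockout arrays were below a narrow control group, and the difference of -0.70 ± 0.11 (SE, unadjusted p = 0.00119) had the smallest adjusted p of any member (0.140 in limma). It ranged from -0.80 to -0.60 with 1 array left out. Dusp5 read 6.93 and 9.14 in the knockout, against 9.06, 9.76 and 8.97 in the control, so that only replicate 1 was low and the mean difference of -1.23 ± 0.66 (SE) became -0.13 without it. Dusp1 (0.03), the stress-responsive phosphatase, and Dusp6 (-0.08), the cytoplasmic ERK phosphatase, overlapped between genotypes.

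Among the other regulators of this group, Per1, a light-induced gene of the circadian clock, read 7.99 and 8.32 in the knockout, against 8.60, 8.62 and 8.63 in the control. The controls agreed within 0.03 and both knockout arrays were lower (-0.46 ± 0.13, SE, unadjusted p = 0.0162, adjusted p = 0.333 in limma). Rgs2, which speeds GTP hydrolysis by G protein alpha subunits, read 11.08 and 11.46 in the knockout, against 10.72, 10.71 and 11.01 in the control. Knockout replicate 1 was just above control replicate 3, and the difference was 0.46 ± 0.17 (SE, unadjusted p = 0.0402, adjusted p = 0.423 in limma), or 0.27 without knockout replicate 2. Btg2, an antiproliferative gene of progenitors about to become neurons, read 7.64 and 6.97 in the knockout, against 6.77, 6.78 and 6.68 in the control. Its difference of 0.56 ± 0.21 (SE, unadjusted p = 0.0399, adjusted p = 0.422 in limma) was 0.23 without knockout replicate 1. Gadd45b, a growth arrest gene linked to DNA demethylation, overlapped (-0.11).

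**Figure D3:**
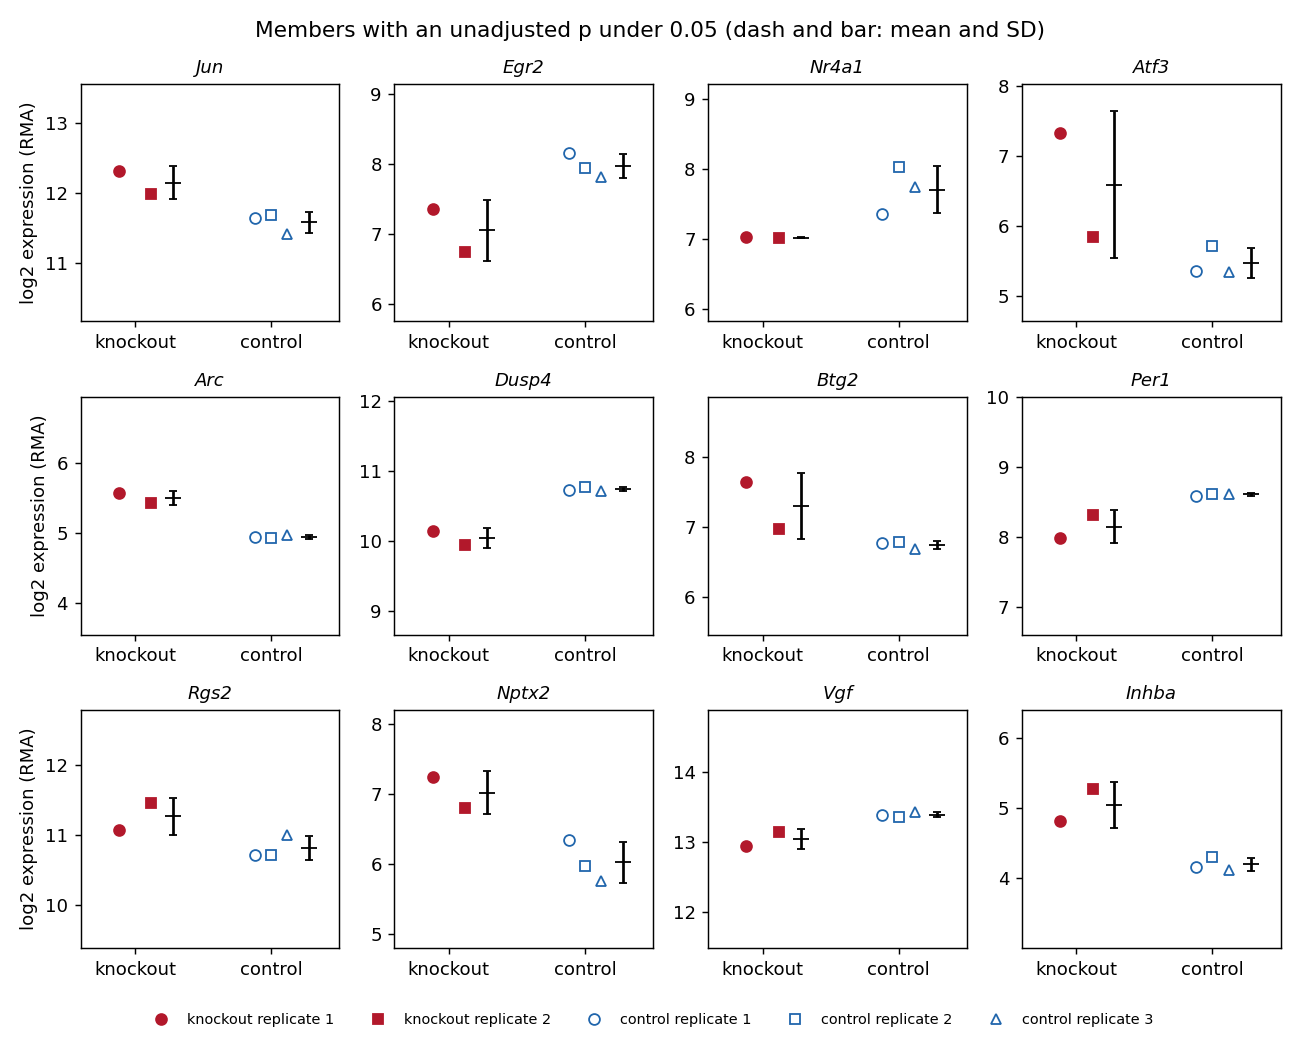
Log2 expression (y axis, RMA values, same span in each panel) of the 12 members with an unadjusted p under 0.05, with knockout arrays left and control arrays right. Dashes and bars give the mean and SD of each group (n = 2 knockout, n = 3 control). Every panel has both knockout arrays on one side of the controls, and the gap is small for Rgs2 and, in replicate 2, for Atf3 and Btg2.

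The late effectors are secreted or synaptic proteins, and 3 of 7 had an unadjusted p under 0.05, 2 higher and 1 lower in the knockout, beside 11.8% of all genes. Nptx2, a secreted pentraxin that gathers AMPA receptors at excitatory synapses, read 7.24 and 6.80 in the knockout, against 6.34, 5.98 and 5.75 in the control. Both knockout arrays were above every control, with a difference of 1.00 ± 0.23 (SE, unadjusted p = 0.00548, adjusted p = 0.242 in limma), a 2.00-fold difference on the linear scale. Its dimmer probe set, below the median level, read 4.32 and 4.31 in the knockout against 3.78, 3.53 and 4.23 in the control, again without overlap. Nptx1, the related pentraxin, did not separate: it read 6.53 and 6.84 in the knockout, against 6.91, 6.87 and 6.64 in the control (-0.12 ± 0.15, SE).

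Inhba, the subunit of activin A, read 4.82 and 5.28 in the knockout, against 4.16, 4.30 and 4.12 in the control. The groups did not overlap (0.85 ± 0.17, SE, unadjusted p = 0.00298, adjusted p = 0.197 in limma), but the probe set was below the median level in both genotypes, and a still dimmer one gave -0.10. Vgf, a precursor of neuropeptides, read 12.94 and 13.14 in the knockout, against 13.38, 13.36 and 13.42 in the control. Both knockout arrays were lower than a narrow control group, and the fold change was -0.35 ± 0.11 (SE, unadjusted p = 0.0250, adjusted p = 0.372 in limma).

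Bdnf, the neurotrophin that binds TrkB, has 2 probe sets that told the genotypes apart to different degrees. The brightest read 6.61 and 7.64 in the knockout, against 5.93, 7.03 and 6.22 in the control, and the groups overlapped (0.73 ± 0.43, SE, unadjusted p = 0.146, adjusted p = 0.596 in limma). The other read 6.77 and 7.40 in the knockout, against 6.16, 6.10 and 5.67 in the control. There both knockout arrays were above all controls (1.11 ± 0.25, SE, unadjusted p = 0.00511, adjusted p = 0.238 in limma). Both probe sets had a higher mean in the knockout. Scg2, a secretory granule protein and peptide precursor, read 10.75 and 13.27 in the knockout, against 12.08, 12.59 and 12.56 in the control. One knockout array was below and the other above all controls, and the fold change was 0.86 without replicate 1 and -1.66 without replicate 2. Pcsk1, a protease that cuts prohormones, was below the median level and overlapped (0.18).

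Early factors and late effectors were set side by side by their medians. The median log2 fold change was -0.05 over the 16 early transcription factors, -0.09 over the 10 other early genes and 0.18 over the 7 late effectors, beside 0.01 over all genes. The early factors minus the late effectors gave -0.23. By array, the median difference of the late effectors from the control mean was 0.22 and 0.78 in the knockout pools, and -0.07 to 0.09 over the control pools. For the early factors it was -0.0037 and 0.0089 in the knockout pools, and -0.07 to 0.08 over the control pools. The late median thus separated the groups and the early one did not, but it rests on few genes. The log2 summed level of the late effectors, which the brightest genes dominate, did not separate the groups. It was 13.28 and 14.24 in the knockout pools and 13.90 to 14.08 over the control pools. Among the 5 late effectors that reached the median level, the median was -0.12 in the fit on such probe sets alone. In that fit the early factors minus the late effectors gave 0.060. Without control replicate 1 the late median was 0.081, and without knockout replicate 1 it was 0.78. No p is given, since genes of a list are not replicates.

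**Figure D4:**
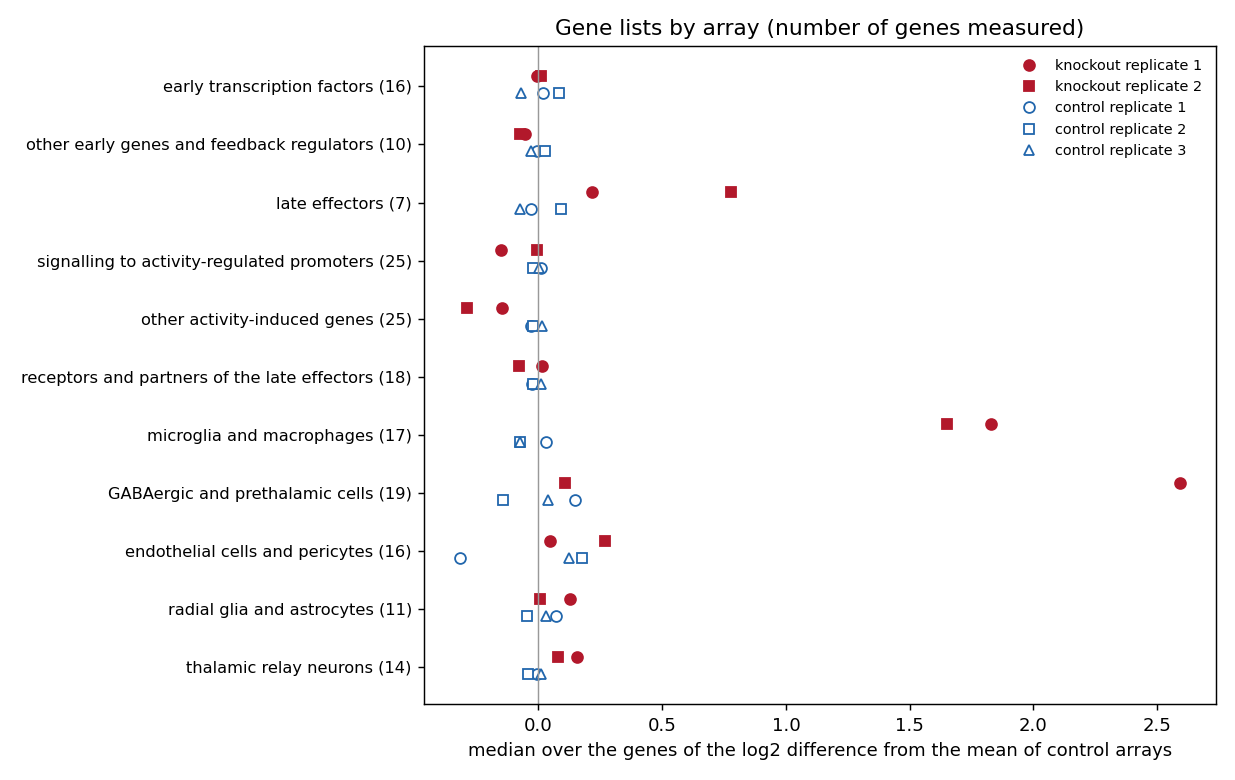
Median over the genes of each list of the difference from the mean of control arrays on the log2 scale (x axis), for the 3 groups of members, the related pathway lists and marker lists of cell types (y axis, with the number of genes measured). Each symbol is 1 array, filled red for knockout and open blue for control. Late effectors lie at 0.22 and 0.78 in the knockout, and microglia markers at 1.83 and 1.65.

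Several members varied widely within a genotype. The knockout arrays differed by more than 1 on the log2 scale for 5 members (15.2%), namely Scg2 (2.52), Dusp5 (2.21), Atf3 (1.48), Nr4a2 (1.43) and Bdnf (1.02), where 3.86% of all genes differed that much. The controls spanned more than 1 for Fos (1.07) and Bdnf (1.10), 6.06% of members, where 1.48% of all genes did. Control replicate 3 was the lowest control for 8 of the 16 early factors, among them Fos, Jun, Egr1 and Egr2. The controls lay close together for Per1 (range 0.03), Junb and Dusp6 (0.04 each), Arc (0.05), Dusp1 and Dusp4 (0.06 each) and the late effector Vgf (0.06). Of these, Junb and Arc were below the median level.

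Of the 14 members with more than 1 probe set, 9 had all of them on the same side of 0. Among the 12 with an unadjusted p under 0.05, Jun, Egr2 and Nptx2 kept their direction at every probe set. Btg2 and Inhba turned at a dimmer probe set (-0.23 and -0.10). Rgs2 gave 0.46, 0.39 and 0.26 at its bright probe sets and -0.16 at a dim one.

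The genes that carry the signal to these promoters were near the background. Of 25 measured kinases, phosphatases, coactivators and transcription factors, 4 had an unadjusted p under 0.05 (16.0%, 1 higher and 3 lower, beside 11.8% of all genes), 7 did not overlap between the genotypes (28.0%, beside 29.7%) and none passed over all probe sets in limma, with a median of -0.09. Mrtfb, a coactivator of SRF, read 11.46 and 11.33 in the knockout, against 10.83, 10.68 and 10.69 in the control (0.66, adjusted p = 0.157 in limma). Camk4, the nuclear kinase that phosphorylates CREB, differed by -0.43, Rps6ka3, a kinase below ERK, by -0.32 and Nfatc4, a calcineurin-dependent factor, by -0.33. Creb1 itself differed by 0.06, Srf by 0.10 and Ppp3cb, a calcineurin subunit, by 0.01.

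Other genes known to be induced by activity, not among the members, mostly had a lower mean in the knockout. Of 25 measured, 17 had a negative fold change, with a median of -0.14. At an unadjusted p under 0.05 there were 6 lower and 1 higher (28.0%), beside 4.9% of all genes lower and 6.9% higher, and none passed over all probe sets in limma (smallest adjusted p = 0.112). The genotypes did not overlap for 16 of the 25 (64.0%), 12 lower and 4 higher, beside 29.7% of all genes. Rasd1, a Ras-like protein induced by glucocorticoids and activity, read 5.96 and 6.01 in the knockout, against 7.27, 7.04 and 7.57 in the control (-1.31 ± 0.18, SE). Plk2, a kinase of synaptic scaling, differed by -0.76, the early gene Ier5 by -0.62 and Rgs4, a regulator of G protein signalling, by -0.50. Ier3 (-0.67) and Nfil3 (-0.59), named after their values were seen, completed the lower set. The 1 higher gene was Sst, which is also a marker of GABAergic cells and read 10.33 in knockout replicate 1, 7.47 in replicate 2 and 6.70 to 7.07 in the controls.

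Receptors and partners of the late effectors gave a median of 0.03 over 18 measured genes, with 1 higher and 1 lower at an unadjusted p under 0.05 (11.1%, beside 11.8% of all genes) and none past the adjusted threshold in limma. Gria1, an AMPA receptor subunit of the kind that pentraxins gather, read 10.52 and 10.17 in the knockout, against 10.79, 10.76 and 10.98 in the control (-0.50, adjusted p = 0.348 in limma). The genotypes did not overlap for 10 of the 18 (55.6%), 7 lower and 3 higher. Over all genes this share was 29.7%, 13.9% lower and 15.8% higher. Of the BDNF receptors, Ntrk2 differed by -0.01, and Ngfr by 0.82 ± 0.38 (SE), without overlap and with knockout replicate 2 as the highest array. The activin receptor genes Acvr1b, Acvr2a, Acvr1c and Acvr2b overlapped, with differences of 0.07, 0.06, -0.05 and 0.47, and Inhbb, an activin subunit gene, was higher in both knockout arrays (0.48 ± 0.21, SE). The higher gene, named after its values were seen, was C3ar1, a complement receptor of microglia that in rodents also binds a peptide of VGF. It differed by 1.08 and was below the median level.

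Markers of microglia and macrophages moved with the genotype. Of 17 measured, 16 were higher in both knockout arrays than in all controls (94.1%), beside 15.8% of all genes. At an unadjusted p under 0.05 in limma 15 were higher (88.2%), beside 6.9% of all genes. The log2 summed level of the 17 was 14.18 and 13.80 in the knockout, against 11.97 to 12.32 in the controls. Of these markers, 3 stayed below the median level. Immediate early genes such as Jun, Atf3, Btg2 and Egr2 are expressed in these cells as well as in neurons, and the part of the cells in the values of the members was not tested. Endothelial and pericyte markers had a summed level of 13.24 and 13.44 in the knockout, against 13.02 to 13.40 in the controls. At an unadjusted p under 0.05 in limma 4 of 16 were higher (25.0%), beside 6.9% of all genes. The part of vessel cells in the values of the members was not tested either.

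Markers of GABAergic and prethalamic cells moved with knockout replicate 1, in the same array that set Atf3, Btg2, Dusp5 and Scg2 apart. Their log2 summed level was 13.52 in that array and 11.38 in the second knockout array, and it spanned 10.82 to 11.58 over the controls. Of 19 measured, 8 were higher in both knockout arrays than in all controls (42.1%), beside 15.8% of all genes. At an unadjusted p under 0.05 in limma 4 were higher (21.1%), beside 6.9% of all genes. Of the 19 markers, 6 stayed below the median level. Knockout replicate 1 also had the widest gaps between 3′ and 5′ quality probe sets, 2.34 for Gapdh and 1.91 for Actb. Neither the part of these cells nor that of RNA quality in the values of that array was tested. Without knockout replicate 1, Egr2 differed by -1.22, Dusp4 by -0.80, Inhba by 1.08, Nptx2 by 0.78 and Arc by 0.48. Jun was 0.40 without it, Rgs2 0.65, Atf3 0.38 and Btg2 0.23, and Vgf was -0.25, Per1 -0.29 and Nr4a1 -0.69. These differences rest on 1 knockout array, so no p is given for them.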

How the data were processed

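RNA of dLGN pools at postnatal day 0, 20 ng each, was amplified, biotin-labelled and hybridised to Affymetrix arrays, per the labels' protocols. The deposited values are log2 expression per probe set, which the authors obtained by RMA, as the submitters' processing notes record. RMA corrects background, equalises the distributions of arrays and summarises probes. Which version and settings they used is not given in the sources used here.

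Control probe sets (64 of 45101) were left out. Symbols came from the platform annotation, 34741 of 34945 single-gene probe sets being found by gene ID in RefSeq (GRCm38.p6). Knockout (2 arrays) was compared with control (3 arrays) by the moderated test of limma 3.58.1 (lmFit, eBayes; R 4.3.3), two-sided, with p-values adjusted by Benjamini-Hochberg over 45037 probe sets. The p-values measure the spread between pools, and the number of arrays limits the precision. The fit was tested on simulated data.

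The members and lists were chosen with earlier results of these data known, so a direction in them is a description. All members were named. From each pathway list up to 4 genes with the smallest unadjusted p under 0.05 at the median level or above were named, and further genes after their values were seen. Alternatives tried were a replicate block, 2 other normalisations, a filter on dim probe sets, 2 other priors, array weights, the mean of a gene's probe sets, a looser threshold and each array left out in turn.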

Additional observations from a re-analysis of the deposited data

Results flagged for a closer look

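The quality probe sets of Gapdh, which entered no comparison, differed between the 3′ and 5′ ends by 2.34 in knockout replicate 1, where no control array exceeded 1.33. The Actb pair differed by 1.91 in knockout replicate 1 and by 1.45 or less in every control array.

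A probe set shared by Nptxr and Npcd, left out because it names no single gene, averaged 5.98 ± 0.04 in the knockout and 5.52 ± 0.15 in the control (SD, n = 2 and n = 3), with both knockout arrays above all controls (limma adjusted p = 0.314). The other 2 shared probe sets overlapped between genotypes, with differences of 0.15 and 0.21. No group was large enough to test an array as an outlier.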

How the results depend on the processing

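With 2 and 3 arrays a group, calls over all probe sets were unstable. The 33 probe sets past the adjusted threshold became 97 with dim probe sets left out, 100 with an intensity trend and 19 with array weights. The count was 158 at an adjusted p of 0.10, 0 with the replicate number as a block and 0 with any 1 control array left out. No member passed the adjusted threshold in any of these settings (smallest adjusted p = 0.0657, for Dusp4), nor at 0.10 in the fit to all arrays. Members with an unadjusted p under 0.05 in limma numbered 9 to 12 in the other settings, where 10.4% to 13.5% of all genes met that limit. With the replicate block there were 11, 9 of them shared with the 12 reported. Members with separated groups numbered 15 to 26 with 1 array left out, the highest without knockout replicate 2, beside 14 with all 5 arrays. Groups of fewer arrays separate more easily, and no share of all genes is given for these settings. The rise therefore cannot be read as a property of the members or of that array.

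The median of the other early genes was -0.14 with the replicate block and -0.14 (without control replicate 3) to -0.033 (without control replicate 2) with 1 array left out. The median of the late effectors was -0.12 with dim probe sets left out and 0.081 (without control replicate 1) to 0.78 (without knockout replicate 1) with 1 array left out. The early factors minus the late effectors gave 0.060 with dim probe sets left out, and -0.77 to -0.084 without the same arrays. With 1 array left out, the sign turned for 11 of the 33 members (Fosl2, Junb, Egr1, Npas4, Nr4a2, Klf2, Ier2, Dusp1, Gadd45b, Nptx1 and Scg2) and for 0 of the 12 with an unadjusted p under 0.05, whose size still moved (Atf3 0.38 to 1.86, Btg2 0.23 to 0.90). Bdnf ranged from 0.22 to 1.24 and Npas4 from -0.0088, without control replicate 1, to 0.13. When all probe sets of each gene were averaged, Btg2 was 0.17, Rgs2 0.23 and Inhba 0.38. The causes were not tested.

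The replicate numbers are shared between the genotypes, but nothing in the labels says that they pair the pools. Deviations of same-numbered arrays from their group mean correlated at 0.15 and 0.21. The 2 knockout arrays deviate from their mean by equal and opposite amounts, so the differently numbered pairs gave -0.15 and -0.21 by construction. These values therefore cannot decide whether the pools are paired. The block used arrays numbered 1 and 2 only. Fosb, Junb, Npas4, Arc, Ier2, Inhba and Pcsk1 lay below the median level in both genotypes, which limits what their probe sets show.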
